A study of Equus caballus with 26 samples.

Results

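The 9 genes described here encode molecules with which white blood cells roll along, stick to and cross the vessel wall: *SELP*, *SELPLG*, *ITGAM*, *ITGAL*, *ITGB2*, *ITGA4*, *ICAM1*, *PECAM1* and *CD44*. They were taken as listed genes from the 24415 gene names of an equine array, and all 9 were found under their own symbol. Each is represented by the brightest of the probes that carry that gene name. For *ITGB2*, 3 probes under another gene name were brighter and are described with the other probes below. Whole-blood RNA of Equus caballus had been collected in PAXgene tubes around an endurance ride of 160 km and hybridised to Agilent arrays of a single colour. The experimental set held 3 geldings (horses 2, 32 and 41), each measured at T0, before the competition, and again at T1, after it. The validation set held different horses at each time point, 7 at T0 (3 females and 4 geldings) and 13 at T1 (3 females and 10 geldings), with 1 array per horse. The horses were Arabian or half-breed Arabian by the study's methods, the labels call the experimental set training, and no group of horses that did not compete was analysed here. By the same methods, most horses sampled at T0 alone were later withdrawn from the ride and all horses sampled at T1 alone finished it, so that in the validation set the time point and the outcome of the ride cannot be told apart. A level below is a probe's log2 signal relative to the 75th percentile of its array, and a change is the level at T1 minus the level at T0. Levels of different genes come from different probes and are not set against each other.

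White cells leave the blood in steps. P-selectin (*SELP*), stored in platelets and vessel lining and set out on their surface upon activation, catches cells through its ligand PSGL-1 (*SELPLG*), and the hyaluronan receptor CD44 also serves in rolling. Integrins then hold the cell firmly: the beta 2 chain (*ITGB2*) pairs with the alpha L chain (*ITGAL*) to form LFA-1, typical of lymphocytes, or with the alpha M chain (*ITGAM*) to form Mac-1, typical of neutrophils and monocytes, and both bind ICAM-1 (*ICAM1*). The alpha 4 chain (*ITGA4*) forms VLA-4, which lymphocytes, monocytes and eosinophils use to bind VCAM-1, and PECAM-1 (*PECAM1*, CD31) acts where cells pass between the cells of the vessel lining. Exertion detaches neutrophils from vessel walls, which is called demargination, whereas stress hormones send lymphocytes out of the blood into tissues. In whole blood, fewer cells of a type and less RNA per cell cannot be told apart.

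The probes used for the integrin chains and for *CD44* are shown, with a second *ITGB2* probe, because each value stands for the signal of 1 such stretch. Not every gene that passed has its probe printed, and that of *SELP* is left out. The sequences are those deposited with the scanner files, 5′ to 3′, and the positions are those of the array annotation, whose header names the build EquCab1. The *ITGAM* probe lies at chr13:5924771-5924830 on the minus strand. The *ITGAL* probe, on the same chromosome and strand, spans chr13:6555323-6555809, which is 487 bases for a probe of 60 bases, so that it is split in the genome. The *ITGA4* probe lies at chr18:47828247-47828306 and the main *ITGB2* probe at chr26:1871080-1871139, both on the plus strand. The second *ITGB2* probe, which has 50 bases and no position, aligns with the main one over 44 bases, of which 43 are identical. The difference, G27A, is counted from 1 at the 5′ end of the main probe, and the base concerned is the only one in capitals. The main *CD44* probe spans 6206 bases of the unplaced sequence (chrUn:290851444-290857649).
ITGAM: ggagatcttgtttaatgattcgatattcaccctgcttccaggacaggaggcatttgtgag
ITGAL: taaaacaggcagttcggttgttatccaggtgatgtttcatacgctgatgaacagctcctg
ITGA4: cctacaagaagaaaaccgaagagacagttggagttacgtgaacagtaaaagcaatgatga
ITGB2, main probe: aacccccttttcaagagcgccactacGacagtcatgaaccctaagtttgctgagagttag
ITGB2, second probe: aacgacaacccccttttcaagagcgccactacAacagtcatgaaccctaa
CD44, main probe: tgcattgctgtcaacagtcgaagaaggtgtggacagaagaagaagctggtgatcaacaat

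The main probe of each of the 9 genes was well above background on all 26 arrays. Between 60.2% and 75.3% of the probes passed that mark per array, and the arrays lay on 18 slides scanned on 8 days. For 2 arrays, values are given separately. The T0 array of validation horse 47 was the highest of the 7 T0 arrays for 6 of the 9 genes and the lowest for the other 3, in each case on the side of the T1 arrays. Its gap to the nearest T0 array did not pass Dixon's critical value (0.568 for 7 arrays) for any of the 9 genes. Its mean level over the 5 neutrophil markers on the array was 5.56, against 3.92 to 4.12 on the other T0 arrays and 5.34 to 6.35 on the T1 arrays, and its 7 T cell markers averaged 0.16, against 0.65 to 1.53 and -1.03 to 0.41. It was kept under its label, and the validation change of each gene is also given without it. The T1 array of horse 34 was scanned in a single pass and had 431 saturated spots, among them the *SELP* probe and the 3 brighter *ITGB2* probes. Marker lists of blood cells also differed between the time points, counted here at an adjusted p under 0.05 (limma). In the validation set, 4 of 5 neutrophil and 4 of 6 monocyte markers tested passed as higher at T1 (20.2% of all gene names). Passing as lower were 7 of 7 T cell, 5 of 6 B cell and 4 of 6 NK cell markers (24% of all). The 3 markers of basophils and eosinophils tested passed as lower too. The NK cell receptor gene *NCR1* went against its list, with a change of 1.34 (adjusted p = 0.000244 in limma) in the validation set and 1.02 (adjusted p = 0.165) in the experimental set. In the experimental set 3 of 5 neutrophil and 4 of 6 monocyte markers passed as higher (6.23% of all gene names). Passing as lower (4.05% of all) were 5 of 7 T cell, 2 of 6 B cell and 4 of 6 NK cell markers. Of the basophil and eosinophil markers in that set, 3 of 4 passed as lower. *MS4A2*, a basophil and eosinophil marker that passed in both sets, was well above background on 10 of the 26 arrays. Whether these were the T0 arrays was not examined, so that its fall is a description only. Over all marker lists, 4 of 45 markers tested passed without horse 2 and 5 of 45 without horse 32. In these fits 145 and 364 of all 17486 gene names passed. The 4 platelet markers tested changed by -0.058 to 0.82 in the experimental set and by 0.066 to 0.46 in the validation set and did not pass, although 1 did in the validation set without horse 47. All 4 platelet markers tested were well above background on each of the 26 arrays, whereas *PPBP* reached that mark on 2 arrays and *GP6* on 0. Of the 6 endothelial markers on the array, 1, *VWF*, reached it on at least 20 arrays. *KDR*, a receptor of the vessel lining for VEGF that reached it on 18 arrays, was the endothelial marker that passed, higher at T1 by 2.03 in the experimental (adjusted p = 0.0184 in limma) and 1.71 in the validation set (adjusted p = 0.000481). The hemoglobin gene *HBB*, 1 of 3 erythroid markers tested, was higher by 2.52 (adjusted p = 0.0425) and 2.25 (adjusted p = 0.0115). The part of these shifts in the changes below was not tested.

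Of the 9 genes, 4 passed the threshold in the experimental set at an adjusted p under 0.05 (limma), where 10.3% of all 17486 gene names tested did: *SELP*, *ITGAM* and *ITGB2* were over-expressed at T1 (6.23% of all) and *ITGA4* was under-expressed (4.05% of all). In the validation set 7 passed, against 44.2% of 17403 gene names: *SELP*, *ITGAM*, *ITGB2* and *CD44* were over-expressed (20.2% of all) and *ITGAL*, *ITGA4* and *PECAM1* under-expressed (24% of all). *SELPLG* and *ICAM1* passed in neither set. The direction of the change was the same in both sets for all 9 genes, 6 higher and 3 lower. Of all gene names tested, 51.5% were higher at T1 in the experimental set and 45.9% in the validation set. The share of all gene names with the same direction in both sets was not counted. The median change of the 9 genes was 0.81 in the experimental set, where that of all gene names was 0.029, and 0.48 in the validation set, where that of all was -0.069. The 4 calls of the experimental set rested on its 3 horses. Without horse 2, 0 passed (145 of all 17486 gene names), and without horse 32, 1 passed (*ITGAM*, with 364 of all). Without horse 41, 4 passed (3058 of all), and 0 when dim probes were not filtered out (46 of 24415). At an unadjusted p under 0.05 in limma, 4 of the 9 genes stood without horse 2, 5 without horse 32 and 4 without the filter. The share of all gene names at that mark was not counted in these fits, so that these counts do not restore the calls. In the main fit 5234 of 17486 gene names and 5 of the 9 genes reached it. Without horse 47, 7 passed in the validation set, and between 7 and 8 when each of the 20 arrays was left out in turn.

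**Figure D1:**
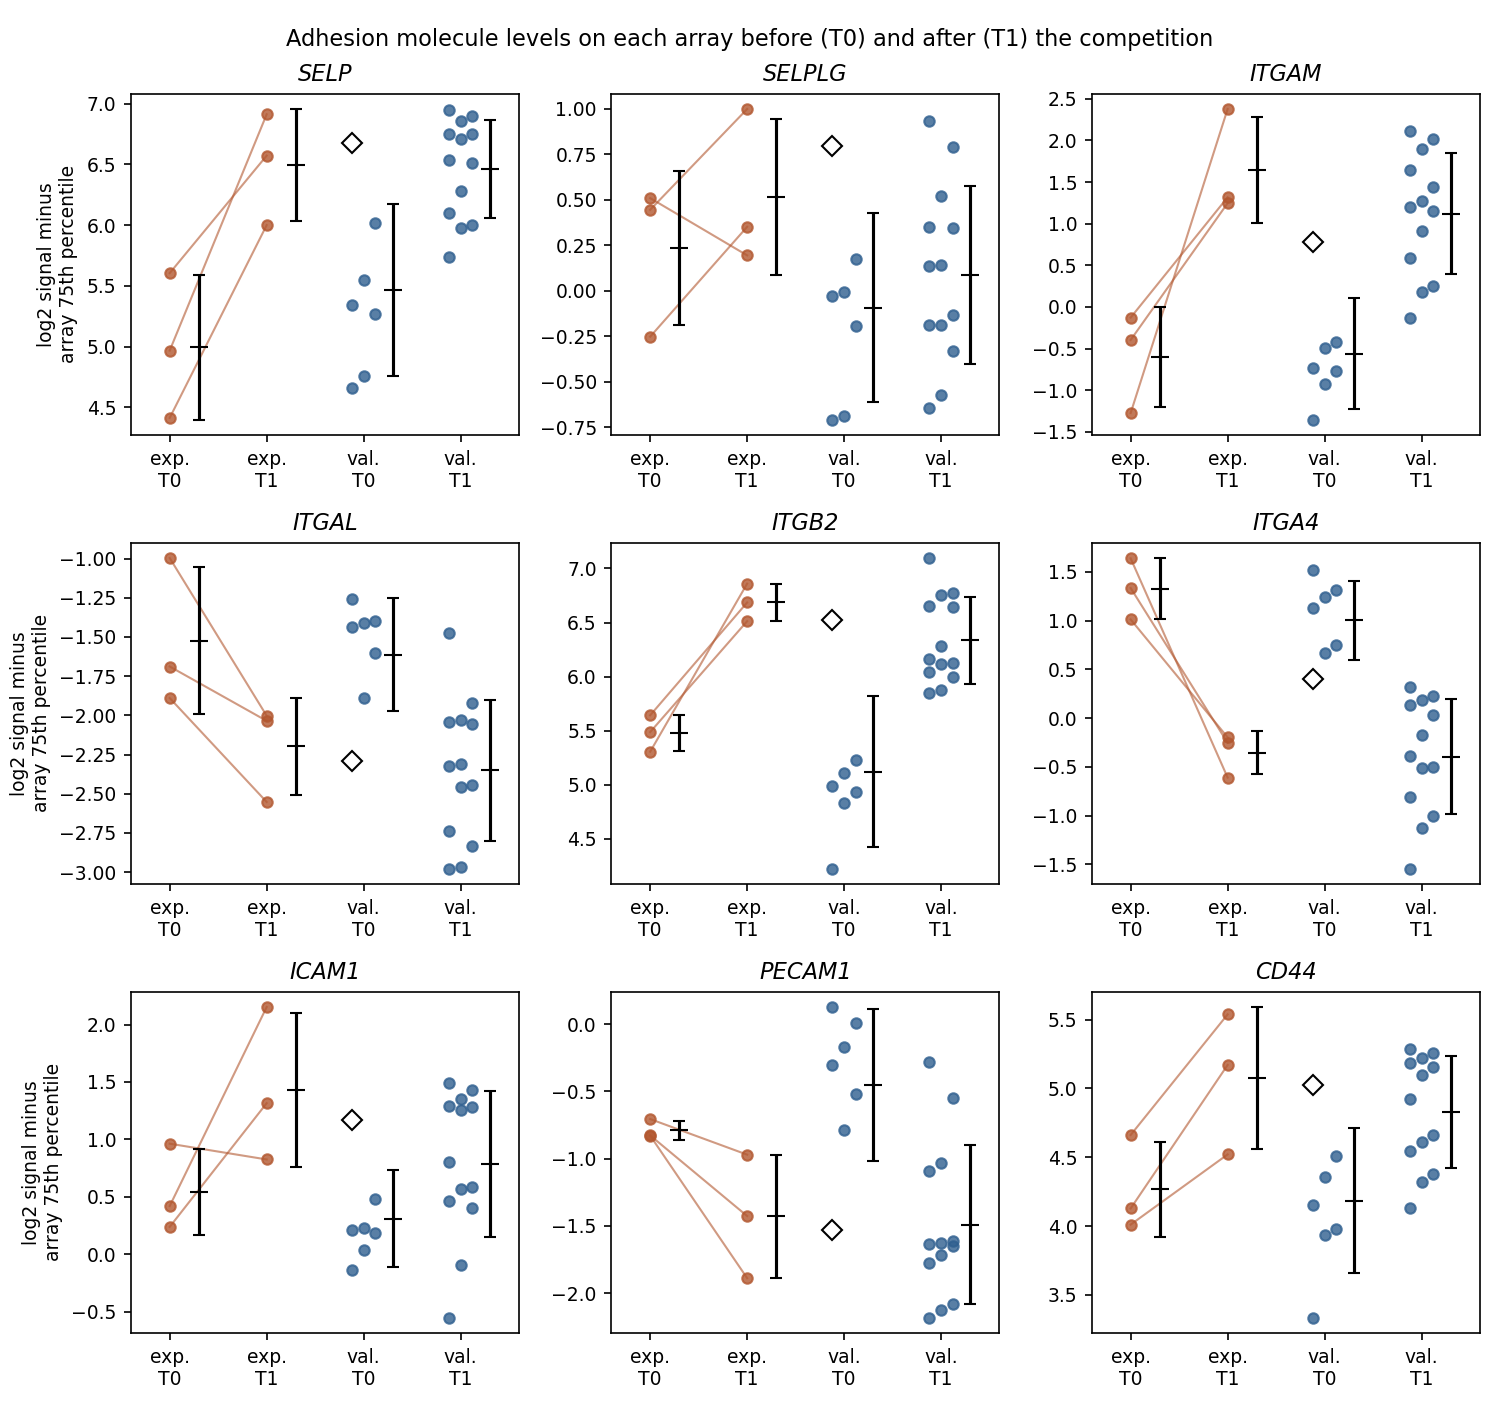
Levels of the 9 genes on every array (log2 signal, less the 75th percentile of that array), with experimental horses joined by lines, validation horses as points, horse 47 as an open diamond, and the mean ± SD beside each group. *ITGA4* is the gene among these 9 whose T0 and T1 arrays did not overlap in either set, which was not counted over all gene names. Horse 47 sat at the T1 side of the T0 group in all 9 panels.

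**Figure D2:**
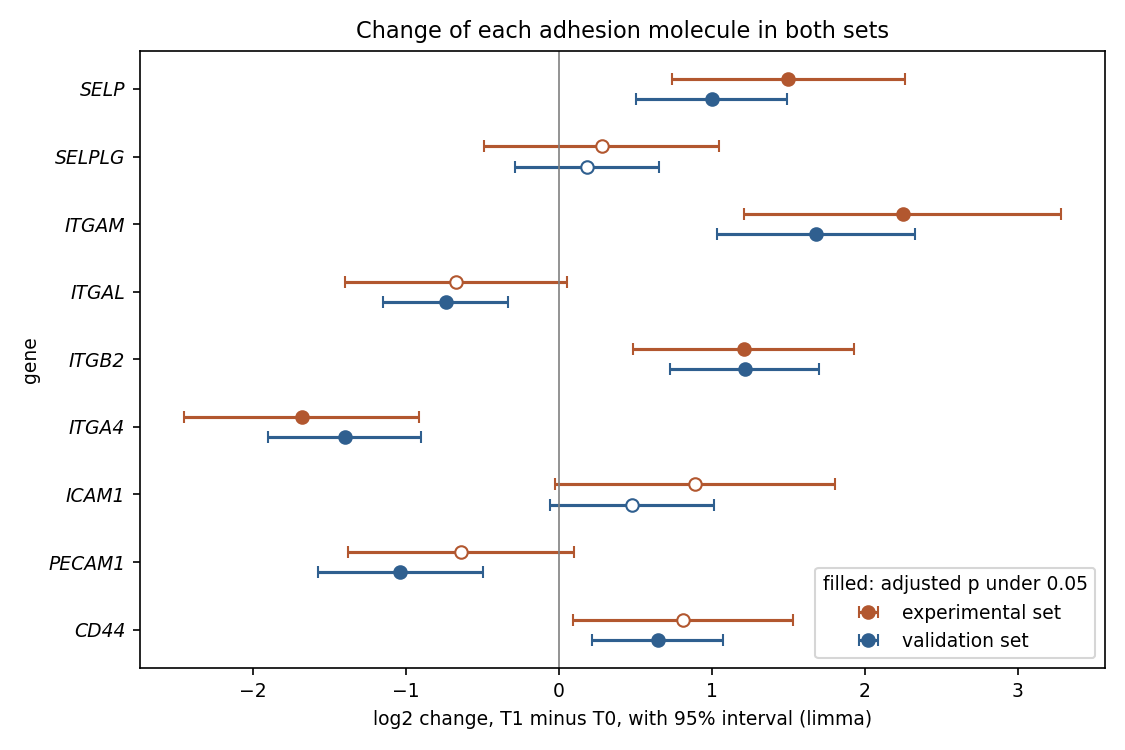
Change from T0 to T1 (log2) with its 95% interval from limma for each gene in the experimental and the validation set, filled where the adjusted p was under 0.05. The rises were largest for *ITGAM* (2.25 and 1.68) and the falls for *ITGA4* (-1.68 and -1.40) among these 9 genes.

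*SELP* rose in both sets. In the experimental set it stood at 4.41, 4.97 and 5.61 in horses 2, 32 and 41 at T0 and at 6.0, 6.91 and 6.57 at T1. All 3 T1 levels were above all 3 T0 levels, and the change was 1.5 on the log2 scale (2.83-fold, SE 0.34, adjusted p = 0.0297 in limma). Validation horses ranged from 4.66 to 6.67 before the ride (median 5.34, n = 7) and from 5.74 to 6.95 after it (median 6.54, n = 13). The groups overlapped. Horse 47 was above 7 of the 13 T1 arrays, and of these 13 arrays 10 were above all other T0 arrays. The change was 1.0 (2.0-fold, SE 0.24, adjusted p = 0.00191 in limma) and 1.20 without horse 47 (adjusted p = 0.000109). The saturated array of horse 34 gave the median T1 value. Its loss left the change at 0.99. *SELPLG*, the ligand's gene, differed in the direction of its change between horses. It went from 0.44 to 1.0 in horse 2 and from -0.25 to 0.35 in horse 41, but from 0.51 to 0.19 in horse 32. The validation groups overlapped almost wholly, with T0 arrays between -0.71 and 0.79 (median -0.028) and T1 arrays between -0.65 and 0.93 (median 0.13). The change was 0.28 (95% interval -0.49 to 1.05, adjusted p = 0.612 in limma) in the experimental and 0.18 (-0.29 to 0.65, adjusted p = 0.546) in the validation set. There it was 0.33 without horse 47 (adjusted p = 0.232) and turned to -0.11 with scan day as a term (adjusted p = 0.731).

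Both partners of Mac-1 were over-expressed at T1. *ITGAM* went from -1.27, -0.13 and -0.40 in horses 2, 32 and 41 to 2.38, 1.32 and 1.25. The groups did not overlap, and horse 2, lowest at T0 and highest at T1, changed by 3.65 against 1.45 and 1.64 in the others. The fitted change was 2.25 (4.75-fold, SE 0.46, adjusted p = 0.0218 in limma), and without horse 2 it was 1.54 (adjusted p = 0.116). Validation levels of *ITGAM* ran from -1.35 to 0.78 before the ride (median -0.74) and from -0.13 to 2.12 after it (median 1.21). The T0 arrays other than that of horse 47 reached -0.42 at most and so stayed below every T1 array. The change was 1.68 (3.21-fold, SE 0.31, adjusted p = 0.00024 in limma), or 1.90 without horse 47 (adjusted p = 3.1e-05).

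*ITGB2*, the chain shared by Mac-1 and LFA-1, stood at 5.31, 5.64 and 5.49 at T0 and at 6.86, 6.69 and 6.51 at T1 in horses 2, 32 and 41. No T1 level fell into the T0 range, and the change of 1.21 (2.31-fold, SE 0.32) passed narrowly (adjusted p = 0.0464 in limma). It did not pass with quantile normalization of the same signals (0.91, adjusted p = 0.113). Validation horses had levels from 4.22 to 6.53 at T0 (median 4.99) and from 5.85 to 7.10 at T1 (median 6.17). Again horse 47 was the T0 array inside the T1 range, and the other 6 T0 arrays reached 5.23 at most. The change was 1.21 (2.32-fold, SE 0.24, adjusted p = 0.000344 in limma) and became 1.45 without horse 47 (adjusted p = 4.66e-06).

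*ITGAL*, the alpha chain of LFA-1, went the other way. It was -1.69, -1.0 and -1.89 in horses 2, 32 and 41 at T0 and -2.04, -2.0 and -2.55 at T1. All T1 levels were below all T0 levels, but the fitted change of -0.67 (SE 0.32, 95% interval -1.40 to 0.055) did not pass (adjusted p = 0.196 in limma). It passed with scan day as a random block in place of the horse (-0.78, adjusted p = 0.0461). The validation levels ranged from -2.29 to -1.26 at T0 (median -1.43) and from -2.98 to -1.48 at T1 (median -2.32). The groups overlapped, with 8 of 13 T1 arrays below all T0 arrays, and 12 of 13 once horse 47 was set aside. The change was -0.74 (1.67-fold lower, SE 0.20, adjusted p = 0.00443 in limma), -0.85 without horse 47 (adjusted p = 0.0012) and -0.61 with scan day as a term, where it did not pass (adjusted p = 0.0611).

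*ITGA4* fell in every experimental horse, and its groups did not overlap in either set. How many of all gene names had groups without overlap was not counted, so that the lack of overlap is a description only, here and for the other members. It stood at 1.33, 1.64 and 1.01 in horses 2, 32 and 41 at T0 and at -0.25, -0.61 and -0.20 at T1. The change was -1.68 (3.21-fold lower, SE 0.34, adjusted p = 0.0216 in limma). The T0 arrays of the validation set held levels of 0.40 to 1.52 (median 1.13) and the T1 arrays levels of -1.54 to 0.32 (median -0.39). The lowest T0 array, that of horse 47, was thus above the highest T1 array, that of horse 44. The change was -1.40 (2.64-fold lower, SE 0.24, adjusted p = 0.000123 in limma), or -1.50 without horse 47, and kept that call under every alternative tried in the validation set, with values from -1.50 to -1.22 and an adjusted p of 0.000496 at most.

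*ICAM1*, which vessel lining and activated white cells express, did not pass in either set as fitted. It rose in horse 2 from 0.42 to 2.15 and in horse 41 from 0.24 to 1.32, and was 0.96 and 0.82 in horse 32. The change was 0.89 (SE 0.40, 95% interval -0.024 to 1.81, adjusted p = 0.176 in limma), 0.47 without horse 2 and 1.41 without horse 32. It passed with scan day as a random block in place of the horse (0.95, adjusted p = 0.0394). Among validation horses the levels ran from -0.14 to 1.17 at T0 (median 0.21) and from -0.55 to 1.49 at T1 (median 0.80), and the lowest of all 20 arrays was a T1 array, that of horse 21. There the change was 0.48 (SE 0.26, 95% interval -0.055 to 1.01, adjusted p = 0.138 in limma). It passed without horse 21 (0.59, adjusted p = 0.0368), did not pass without horse 47 (0.62, adjusted p = 0.0524) and was 0.092 with scan day as a term (adjusted p = 0.8).

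*PECAM1* was lower at T1 in all 3 experimental horses, at -0.71, -0.83 and -0.83 in horses 2, 32 and 41 at T0 and at -0.97, -1.89 and -1.43 at T1. The groups did not overlap, yet the T1 levels were spread (SD 0.46, against 0.071 at T0) and the change of -0.64 (SE 0.33, 95% interval -1.38 to 0.10) did not pass (adjusted p = 0.223 in limma). Validation horses had levels that ranged from -1.53 to 0.13 at T0 (median -0.31) and from -2.18 to -0.28 at T1 (median -1.63). Of the T1 arrays, 9 of 13 were below all T0 arrays, and 11 of 13 were below all T0 arrays other than that of horse 47. The change was -1.04 (2.05-fold lower, SE 0.26, adjusted p = 0.00292 in limma) and -1.22 without horse 47 (adjusted p = 0.000469).

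*CD44* rose in each experimental horse, from 4.13 to 5.17 in horse 2, from 4.66 to 5.54 in horse 32 and from 4.01 to 4.52 in horse 41. The ranges overlapped because horse 32 began above the T1 level of horse 41. The change was 0.81 (SE 0.32, 95% interval 0.092 to 1.53, adjusted p = 0.128 in limma) and did not pass. Validation levels were 3.33 to 5.02 at T0 (median 4.15) and 4.13 to 5.29 at T1 (median 4.92), with horse 47 highest at T0. The change of 0.64 (1.56-fold, SE 0.21, adjusted p = 0.0154 in limma) was 0.78 without horse 47 (adjusted p = 0.00285). It was 0.40 with quantile normalization and no longer passed (adjusted p = 0.146).

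For 4 of the genes several probes could be compared, 19 probes in all for the 9 genes, of which 5 stood under other gene names that carry the symbol of *ITGB2* or *CD44* in the study's annotation. The direction was the same for all probes of a gene. For *CD44* the size was not: the probe printed above changed by 0.81 and 0.64 in the experimental and the validation set, whereas the other 3 probes changed by 1.28 to 1.38 and by 1.23 to 1.37 and passed in both sets (largest adjusted p = 0.0376 in limma). The second probe of the same gene name, which the rule of the brightest probe passed over, rose by 1.36 (adjusted p = 0.0321) and 1.23 (adjusted p = 2.24e-05). The choice of probe therefore set the call of *CD44* in the experimental set. Whether the probes read the same transcripts was not tested. The 5 probes of *ITGB2* rose by 1.04 to 1.36 in the experimental and by 1.07 to 1.49 in the validation set. The upper values there, 1.30 to 1.49, came from the 3 probes saturated on the array of horse 34. The second probe printed above, which holds the base difference, did not pass in the experimental set (1.04, adjusted p = 0.0699 in limma). The 3 probes of *PECAM1* fell by 0.64 to 0.88 and by 0.94 to 1.14, and passed in the validation set alone. The dimmer probe of *ITGAL*, well above background on 25 of 26 arrays, changed by -0.41 (adjusted p = 0.588) and -0.66 (adjusted p = 0.0771) and passed in neither.

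**Figure D3:**
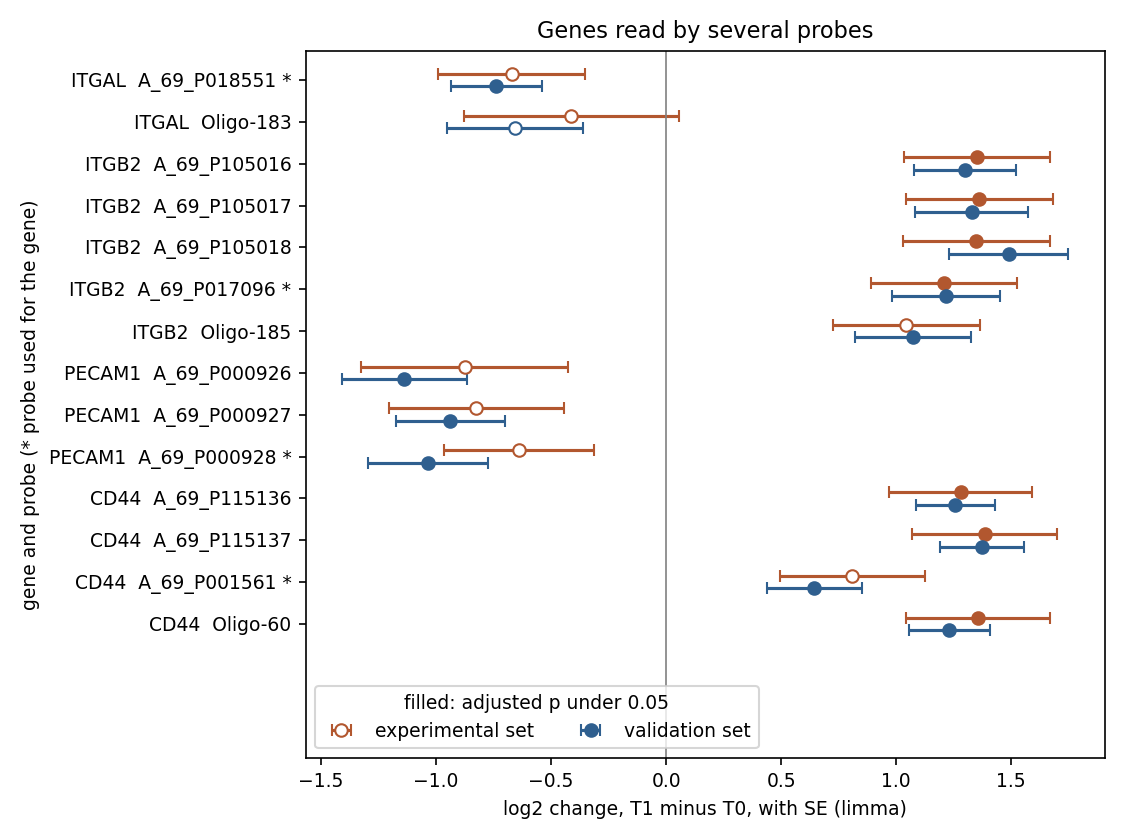
Change from T0 to T1 (log2, with the SE from limma) for each probe of the 4 genes read by several probes, in the experimental and the validation set, filled where the adjusted p was under 0.05. The *CD44* probe used for the gene lies at 0.81 and 0.64, below the other 3 *CD44* probes.

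The changes of the sets were compared in 1 fit of all 26 arrays. None of the 9 genes differed between the sets, nor did any of 19396 gene names tested (0% called), with 158 of them and 0 of the 9 at an unadjusted p under 0.05 (limma). The validation change minus the experimental change ranged from -0.57 for *ITGAM* (95% interval -1.88 to 0.75) to 0.28 for *ITGA4* (-0.69 to 1.25). These intervals are wide, and differences of more than 1 on the log2 scale are inside most of them. A call in the validation set alone, as for *ITGAL*, *PECAM1* and *CD44*, is therefore not shown to be a difference between the sets, and the fit does not show that the changes were alike.

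Scan day was examined because the arrays of each group were spread over days. In the validation set 5 days held both time points, with 16 of the 20 arrays. *SELP*, *ITGAM* and *ITGB2* were higher at T1 on all 5 days, by 0.75 to 2.29, 0.18 to 1.91 and 0.18 to 1.53. *ITGA4* and *PECAM1* were lower on all 5, with differences from -1.49 to -0.87 and from -1.50 to -0.91. *CD44* was higher on 4 days (-0.37 to 1.31) and *ITGAL* lower on 4 (-1.02 to 0.37), and for both the exception was the day on which horse 47 was scanned. *ICAM1* was higher on 3 of 5 days and *SELPLG* on 2 of 5. With scan day as a term, 5 of the 9 genes passed (*SELP*, *ITGAM*, *ITGB2*, *ITGA4* and *PECAM1*). No day held both arrays of an experimental horse. On the 2 days that held both time points of that set, from different horses, *SELP* differed by 1.03 and 2.16, *ITGAM* by 2.51 and 2.52, *ITGB2* by 1.22 and 1.21, and *ITGA4* by -1.89 and -1.53. Horse 2 was in both comparisons, with its T1 array in the first and its T0 array in the second, so that they are not independent.

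**Figure D4:**
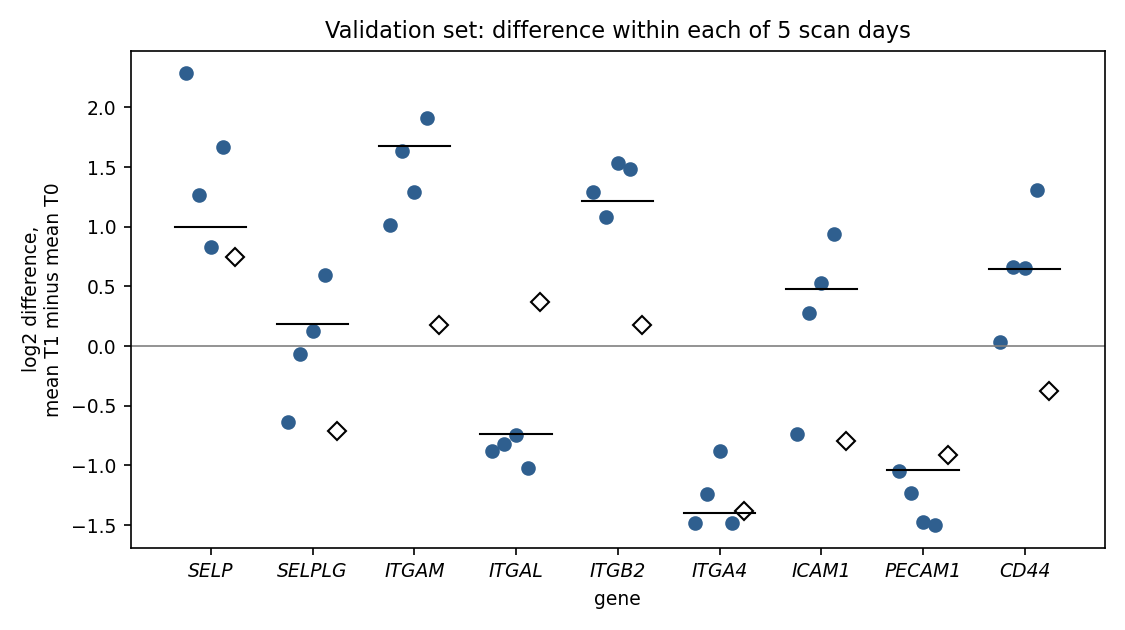
Mean level at T1 minus mean level at T0 (log2) within each of the 5 scan days of the validation set that held both time points, with the day of horse 47 as open diamonds and the change over all days as a line. *ITGA4* and *PECAM1* lie below 0 on all 5 days, and *SELP*, *ITGAM* and *ITGB2* above.

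Around these 9 genes, 76 further genes of the adhesion cascade were listed by role, of which 64 had a probe. In the experimental set 6 of 57 tested passed, 2 higher and 4 lower at T1, which is 10.5% against 10.3% of all gene names, with a median change of 0.13. Of 56 tested in the validation set 27 passed, 13 higher and 14 lower, which is 48.2% against 44.2% of all, with a median of 0.010. Both shares were near those of all gene names. Without horse 47 that count was 30. Without horse 2 or without horse 32 the experimental count was 0, where 145 and 364 of all 17486 gene names passed. At an unadjusted p under 0.05 (limma) 12 and 14 of the 57 genes stood, a share not counted over all gene names. By list, the counts that passed in the validation set stand beside 20.2% of all gene names higher and 24% lower. Of the other selectins and the makers of selectin ligands, 2 of 11 tested passed as higher and 5 as lower. The other integrin chains gave 1 higher and 3 lower of 13, and the genes of integrin activation and anchoring 4 higher and 1 lower of 14. Among other immunoglobulin and junctional adhesion molecules 3 of 14 passed as higher and 5 as lower. In the list of sheddases 3 of 4 genes tested passed as higher. That list held MMP genes beside sheddases of the ADAM family, which cut adhesion molecules off the cell surface. *MMP8*, the collagenase of neutrophil granules, rose most (3.14, SE 0.46, adjusted p = 2.72e-05 in limma), and also rose in the experimental set (3.22, adjusted p = 0.011). *RAP1B*, a small GTPase that switches integrins to their binding state, rose by 1.33 (adjusted p = 5.6e-06) and 1.25 (adjusted p = 0.039). *CD2*, a receptor of T and NK cells and one of the T cell markers above, fell most, by 1.67 (adjusted p = 3.81e-05) and 1.71 (adjusted p = 0.0172). *CD226*, an activating receptor of NK and T cells, fell by 1.48 (adjusted p = 3.6e-05) and 1.26 (adjusted p = 0.039).

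**Figure D5:**
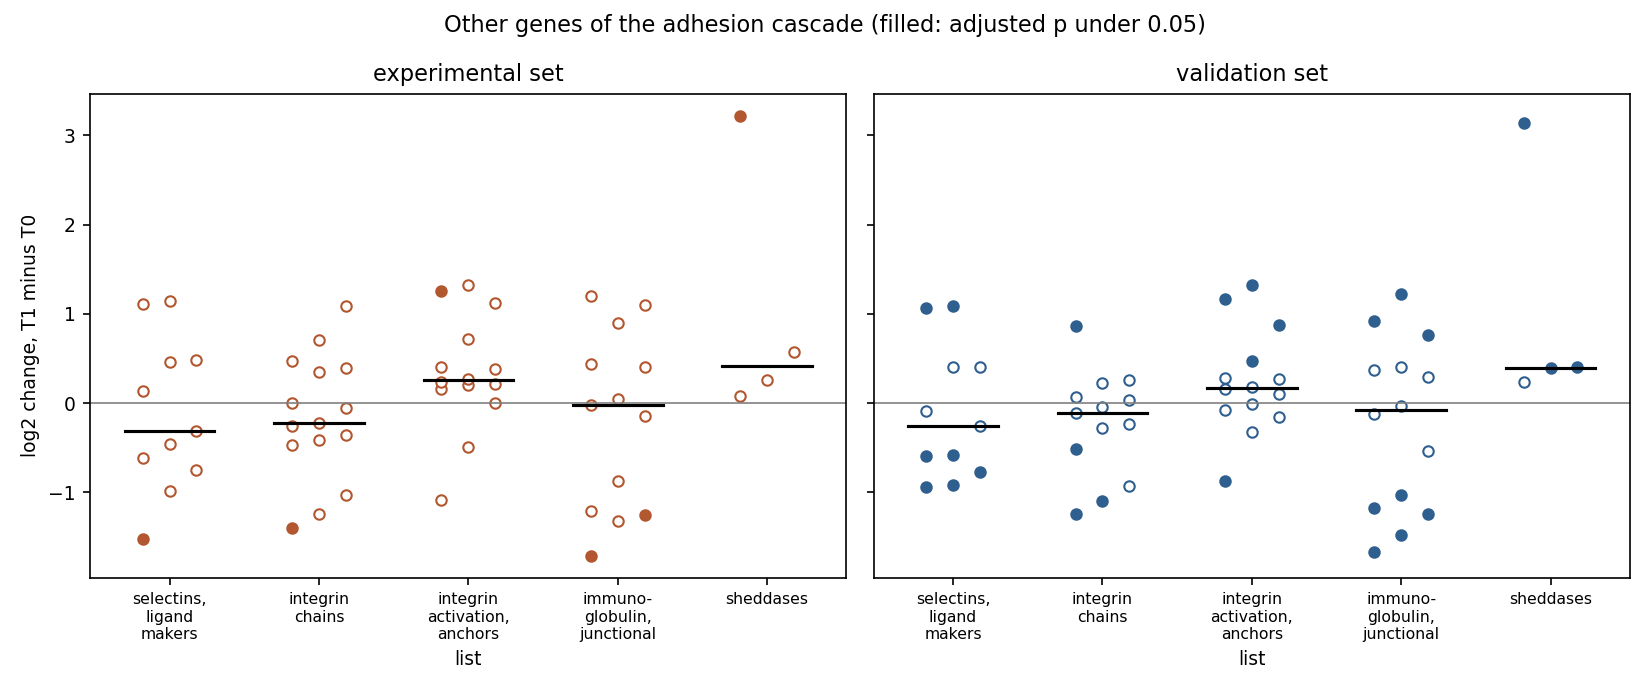
Change from T0 to T1 (log2) of the other genes of the adhesion cascade, by list, in the experimental (left) and the validation set (right), filled where the adjusted p was under 0.05, with the median of each list as a line. Among the genes that passed in the validation set, 13 lay above 0 and 14 below.

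Within the groups, the closest gene name was a different one for each of the 9 genes. The deviations of each array from the mean of its own set and time point were correlated over the 26 arrays, which share slides and scan days, with those of 9947 to 9949 other gene names. The closest were *SERPINE2* for *SELP* (r = 0.82), *CLPTM1* for *SELPLG* (0.93), *GLCCI1* for *ITGAM* (0.92), *FANCG* for *ITGAL* (0.77), *TREML2* for *ITGB2* (0.90), *PSIP1* for *ITGA4* (0.84), *RASSF1* for *ICAM1* (0.93), *FAM149B1* for *PECAM1* (0.70) and *STIM1* for *CD44* (0.92). *APOBR* was among the 3 closest for both *SELPLG* and *ITGAM*, at 0.89. Each r includes the array of horse 47, the highest or the lowest validation T0 array for each of the 9 genes, and was not computed without it. None of the 9 was among the 3 closest of another, which with so many gene names compared does not show whether the 9 varied together. The r between members was not examined.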

How the data were processed

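Whole-blood RNA was measured in 26 samples of 23 horses. The authors' scanner files hold an intensity per spot from Feature Extraction 10.7.3.1, which corrected it for background but left arrays unscaled against each other. A deposited table of the whole series, used as an alternative, gives log2 values. Samples were grouped by their labels. Control spots and 386 outlier spots were left out, log2 intensities were taken, and each array's 75th percentile was subtracted. Of the probes of a gene name, the one with the highest mean level was used. Symbols came from the array (6665 gene names by name, 49 by description), the additional files (1761) or the RefSeq gene table (6582), and 9358 had none. Gene names well above background on at least 3 arrays (7 in the validation set) were tested with limma 3.58.1 in R 4.3.3, with Benjamini-Hochberg adjustment over all of them. The horse was a fixed block in the experimental set, whose labels give both arrays of a pair the same animal (r of a pair's deviations -0.00866, 0.213 and 0.191). The validation set was fitted without a block, and the sets were compared with the horse as a random block (consensus correlation -0.0689). The fits were tested on simulated data. The members and lists were chosen with earlier results of these data known. Genes named besides the members are the 2 largest rises and the 2 largest falls of cascade genes past the threshold in the validation set. The closest of the 3 most similar genes per member are named as well. *APOBR*, *VWF*, *PPBP*, *GP6*, *NCR1*, *KDR*, *HBB* and *MS4A2* were named after their values were seen. Alternatives changed the normalization, the filter, the probe, the block, scan day, slide, sex and the horses, and the alternative without horses 34 and 47 and the list counts without single horses were chosen after seeing the data. Python 3.11.15 with pandas 2.3.3 and matplotlib 3.10.9 was used for tables and plots. The number of arrays limits the precision.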

Additional observations from a re-analysis of the deposited data

How the results depend on the processing

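Of 407 values of single genes recomputed under other settings or from other probes, 378 kept their direction and their side of the threshold, 22 lost the call, 6 gained it and 1 changed direction (*SELPLG* in the validation set, -0.11 with scan day as a term). In the experimental set 4 of the 9 genes passed in limma, and 0 passed with no filter on dim probes, where 24415 gene names were adjusted for and 46 passed in all against 1798. When each experimental horse was left out, between 0 and 4 passed. It was 3 with normexp correction followed by quantile normalization, with quantile normalization alone, with the deposited series values and with the mean of a gene's probes, *ITGB2* being the one lost (adjusted p between 0.0501 and 0.113 in limma), and 6 (*ICAM1* and *ITGAL* being gained) with scan day as a random block in place of the horse. The number of all gene names called moved over 1.5-fold with the filter on every array (2867), with all 26 arrays in 1 fit (2994), with scan day as a random block in place of the horse (5128) and when a horse was left out (145 to 3058). Without the replicate block the paired fit gave the same 4 genes (SELP at an adjusted p of 0.0459). Of the calls over all gene names in that set, 60.6% were higher at T1, against 49.6% with quantile normalization, 48.1% with normexp and 47.5% with the series values. In the validation set between 5 and 8 of 9 passed, 5 with scan day as a term and 7 without horses 34 and 47. *CD44* lost its call with normexp (0.39), quantile normalization (0.40) and the series values (0.39), and with scan day as a term. The difference between the sets was refitted with the other normalizations, filters and probe rule, without the horse as a block, and without horse 2, 32, 41, 34 or 47, and 0 of the 9 genes were called in limma in each of these fits. T1 and T0 arrays of an experimental horse never shared a scan day, so that a fit with both as fixed terms was not run.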
